A study of Mus musculus with 9 samples.

Results

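Rac1, Lamp1, Prkaca, Akt1, Clptm1l and Map7d1 are 6 of the 53801 mouse genes counted in 9 RNA-seq libraries of sorted monocytes and macrophages. They were chosen by their normalized counts in these same libraries, namely a wide spread within sham blood and a shared profile with Rac1, so those values are described below without a test. All 6 passed the filter on low counts over the 9 libraries, as did 13612 genes in all. In the values examined here, 5 of the 6 genes shared a profile, and Akt1 did not.

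Cells gated as CD11c-Ly6G-CD11b+CD45high were sorted from male C57BL/6J mice, 9 weeks of age, into 3 groups of 3 libraries. Stroke brain and stroke blood came from mice 5 days after a permanent focal ischemia, in which the distal branch of the middle cerebral artery and the common carotid artery were closed on the left side (dMCAO), and sham blood came from mice that had sham surgery, for which no day is given in the sources used here. Each blood library held cells of 1 mouse, whereas each brain library pooled cells from the ipsilesional hemispheres of 5 mice. The gate does not separate blood-derived macrophages from other CD45high myeloid cells of the brain.

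Rac1 is a small GTPase that drives actin branching when it is bound to GTP, and phagocytes depend on Rac proteins to close the phagocytic cup around a particle. Guanine nucleotide exchange factors load Rac with GTP, GTPase-activating proteins switch it off, and guanine nucleotide dissociation inhibitors hold it in the cytosol. Among the other genes, Lamp1 encodes an abundant glycoprotein of the lysosome membrane, Prkaca the alpha catalytic subunit of the cAMP-dependent protein kinase, and Akt1 a kinase recruited by the lipid product of PI3K. Clptm1l encodes a membrane protein of the endoplasmic reticulum linked to GPI-anchor lipids, and Map7d1 a microtubule-binding protein of the MAP7 family.

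The genes lie on different chromosomes or far apart on the same chromosome. In GENCODE M21 on GRCm38, Rac1 is annotated at chr5:143503634-143528036 on the minus strand, Lamp1 at chr8:13159161-13175338 on the plus strand and Prkaca at chr8:83972993-83996443 on the plus strand. Akt1 is annotated at chr12:112653821-112674884 on the minus strand, Clptm1l at chr13:73604006-73620605 on the plus strand and Map7d1 at chr4:126232167-126256343 on the minus strand. Exons of Rac1 overlapped those of Daglb on the opposite strand, and exons of Lamp1 overlapped those of Grtp1. The cDNA kit does not mark strand, so reads from those overlaps cannot be told apart and the counts of Rac1 and Lamp1 are uncertain to that extent. The representative transcripts of the 6 genes held no stretch of 75 bases found in another gene.

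The bases just before the start site are shown for the 4 genes that have a RefSeq promoter window (GRCm38.p6). Of these, 3 moved together and Akt1 did not. The stretches are chr8:13158911-13159160 (plus strand) for Lamp1, chr8:83972728-83972977 (plus strand) for Prkaca, chr4:126256344-126256569 (minus strand) for Map7d1 and chr12:112674885-112675134 (minus strand) for Akt1. Capitals mark matches, on either strand, to any of 6 motifs: GGGCGG (the core of a GC box), CCAAT (the motif bound by NF-Y), TATAAA (the TATA box), CACGTG (an E-box), TGACGTCA (a cAMP response element) and GGAAGT (an ETS core). Each line runs 5′ to 3′ and ends at the last base before the start site. For a gene with more than 1 window, the window nearest the annotated gene start was taken.
Lamp1: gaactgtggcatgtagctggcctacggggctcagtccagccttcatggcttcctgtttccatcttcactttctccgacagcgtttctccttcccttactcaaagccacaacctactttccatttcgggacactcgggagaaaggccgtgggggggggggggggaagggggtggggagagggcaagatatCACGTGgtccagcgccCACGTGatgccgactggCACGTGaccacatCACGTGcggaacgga
Prkaca: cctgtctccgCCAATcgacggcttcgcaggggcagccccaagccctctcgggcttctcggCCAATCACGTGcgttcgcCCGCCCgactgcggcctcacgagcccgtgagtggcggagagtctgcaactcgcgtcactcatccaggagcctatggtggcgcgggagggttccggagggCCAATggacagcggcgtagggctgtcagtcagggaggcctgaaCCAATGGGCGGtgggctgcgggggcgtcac
Map7d1: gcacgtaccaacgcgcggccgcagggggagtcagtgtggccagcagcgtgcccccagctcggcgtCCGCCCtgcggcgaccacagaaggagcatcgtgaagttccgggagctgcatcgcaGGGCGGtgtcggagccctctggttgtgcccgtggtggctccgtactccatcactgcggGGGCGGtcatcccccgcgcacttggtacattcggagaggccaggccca
Akt1: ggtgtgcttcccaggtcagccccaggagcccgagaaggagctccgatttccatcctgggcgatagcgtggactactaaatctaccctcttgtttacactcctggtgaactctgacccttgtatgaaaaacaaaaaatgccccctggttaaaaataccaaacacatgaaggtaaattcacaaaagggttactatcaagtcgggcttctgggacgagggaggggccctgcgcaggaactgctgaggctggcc

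The 250 bases of Lamp1 held CACGTG 4 times, and 4 or more copies were found in 7 of 32817 RefSeq windows of the same length (0.02%). Prkaca held CCAAT 4 times, GGGCGG 2 times and CACGTG 1 time, with a CCAAT directly beside a CACGTG and another directly beside a GGGCGG. Map7d1 held GGGCGG 3 times in 226 bases, and Akt1 held none of the 6 motifs. Over all windows, CACGTG was present in 6.0%, GGGCGG in 32.7%, CCAAT in 33.8%, GGAAGT in 19.7%, TATAAA in 12.4% and TGACGTCA in 1.5%. No motif was found in all 3 of the genes that moved together. The share of windows with none of the 6 motifs was not counted, and the part of these motifs in the profiles was not tested.

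Levels are given as TMM-normalized CPM, in which a library's counts are divided by its total after a correction for composition. Total counts were between 18475118 and 22623578 per library. The 10 monocyte and macrophage markers summed to between 90982 and 127630 CPM in sham blood, between 104330 and 111510 CPM in stroke blood and between 42388 and 49267 CPM in stroke brain, and none of them was at 0 in any library. No library was a near copy of another of its group, since the chi-square per degree of freedom between their counts was between 26.2 and 152. In bulk samples of this kind, fewer cells of a type and less RNA per cell cannot be told apart.

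Rac1 was at 72.2, 753 and 405 CPM in sham blood libraries 1, 2 and 3. It was at 129, 78.1 and 187 CPM in the stroke blood libraries and at 578, 591 and 611 CPM in the stroke brain libraries. Sham blood library 1 was therefore just below the lowest stroke blood library, sham blood library 2 lay above every brain library, and sham blood overlapped both other groups. The mean was 410 ± 340 CPM in sham blood, 131 ± 54.5 in stroke blood and 593 ± 16.7 in stroke brain (SD, n = 3 each).

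Lamp1 was at 195, 1377 and 817 CPM in sham blood. It was at 326, 204 and 467 CPM in stroke blood and at 1038, 1109 and 1169 CPM in stroke brain. The order of the 9 libraries from lowest to highest was the same as for Rac1 (Spearman rank correlation of 1.0), and brain lay wholly above stroke blood.

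Clptm1l was at 30.2, 183 and 120 CPM in sham blood. Stroke blood gave 60.6, 37.3 and 88.0 CPM, and stroke brain gave 153, 172 and 170 CPM. Sham blood library 2 was again the highest of the 9 and sham blood library 1 the lowest.

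Map7d1 was at 36.7, 181 and 125 CPM in sham blood. Stroke blood gave 46.1, 41.9 and 92.6 CPM, and stroke brain gave 239, 160 and 176 CPM. Here stroke brain library 1 was the highest of the 9, and sham blood library 2 lay inside the brain range.

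Prkaca, the least abundant of the 6, was at 5.12, 34.1 and 13.7 CPM in sham blood. Stroke blood gave 6.73, 3.65 and 8.50 CPM, and stroke brain gave 41.1, 24.8 and 29.1 CPM. The lowest library was stroke blood library 2 with 77 counts, and the highest was stroke brain library 1 with 845 counts.

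Akt1 was at 47.0, 52.1 and 49.8 CPM in sham blood. It was at 81.2, 55.2 and 95.4 CPM in stroke blood and at 71.3, 446 and 379 CPM in stroke brain. The sham blood libraries were thus close together and below all 3 stroke blood libraries, while stroke brain library 1 lay within the stroke blood range and the other two brain libraries lay far above it.

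**Figure D1:**
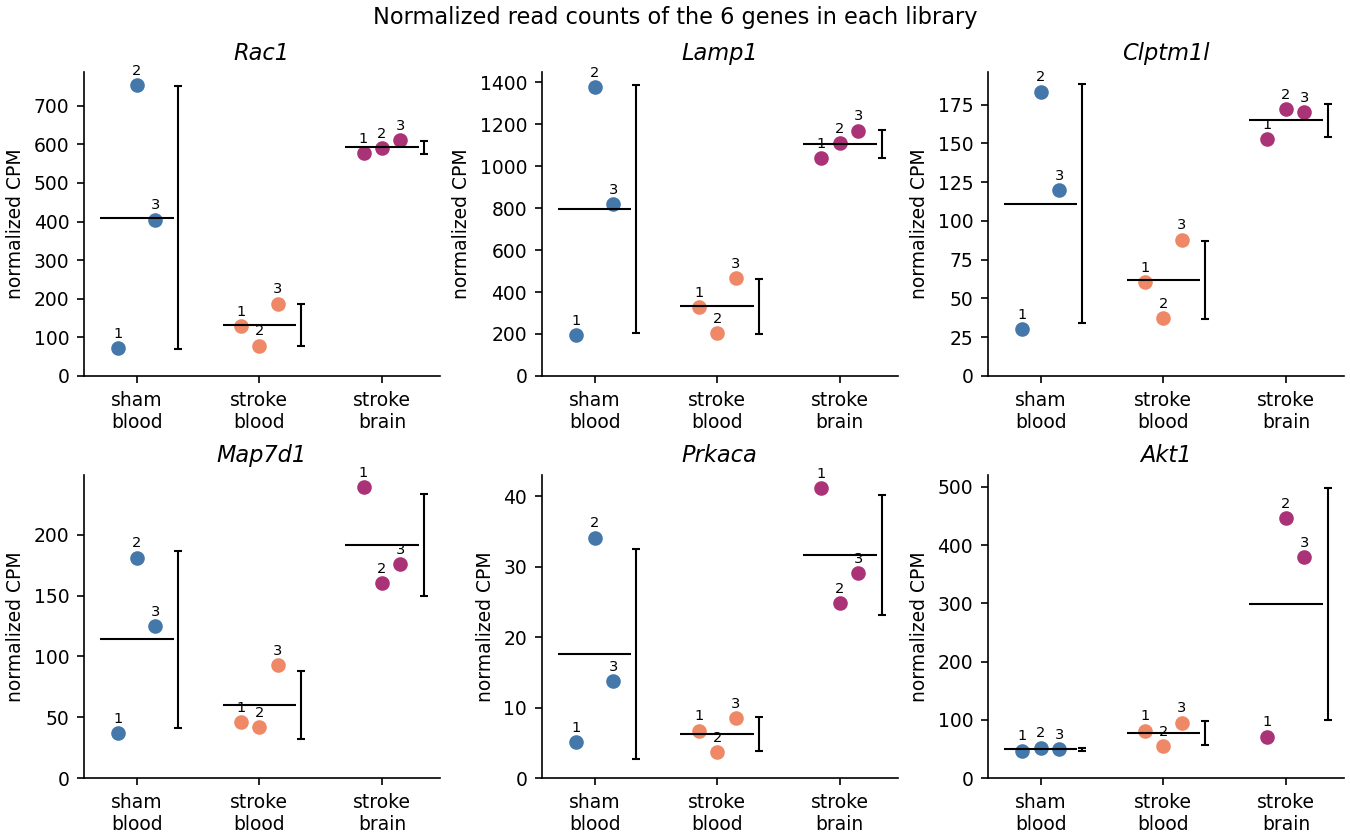
Normalized CPM (linear axes from 0) of the 6 genes in each library, with points numbered by replicate, horizontal lines at the group mean and side bars of 1 SD (n = 3). In 5 panels sham blood library 1 is near stroke blood and sham blood library 2 is near or above stroke brain, whereas for Akt1 the 3 sham blood libraries lie between 47.0 and 52.1 CPM.

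The spread within sham blood was wide for 5 of the genes and narrow for Akt1. The highest sham blood library exceeded the lowest 10.4-fold for Rac1, 7.06-fold for Lamp1, 6.66-fold for Prkaca, 6.07-fold for Clptm1l and 4.93-fold for Map7d1, compared with 1.11-fold for Akt1. The SD on the log2(CPM + 1) scale was 1.74 for Rac1, 1.46 for Lamp1, 1.34 for Clptm1l, 1.26 for Prkaca and 1.19 for Map7d1, against a median of 0.20 over the 8225 genes with a mean above 3 on that scale. Of these genes, 40 had a spread at least as wide as that of Rac1 in sham blood, Rac1 included, and 109 had a spread at least as wide as that of Map7d1. The wide spread in sham blood is part of what the genes were listed for.

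In stroke blood the same 5 genes varied less, between 2.21-fold for Map7d1 and 2.40-fold for Rac1 from the lowest library to the highest. In stroke brain Rac1 varied 1.06-fold, Clptm1l and Lamp1 1.13-fold, Map7d1 1.49-fold and Prkaca 1.66-fold. Akt1 had the reverse order, with a 1.73-fold range in stroke blood and a 6.25-fold range in stroke brain, where its SD of 1.45 on the log2 scale was reached or passed by 14 of 8225 genes, itself included. Of the sum of squares within groups, sham blood held 88.5% for Rac1, 85.4% for Lamp1, 82.4% for Clptm1l, 79.4% for Prkaca and 75.1% for Map7d1, and stroke brain held 92.7% for Akt1. Each brain library pooled 5 mice whereas each blood library held 1, so spreads in brain and blood were not measured on like samples.

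Levels can be compared between genes only per length, here per kilobase of the union of a gene's exons. In stroke brain the order was Lamp1 (413 ± 24.5 CPM per kb), Rac1 (132 ± 3.72), Akt1 (72.9 ± 48.7), Clptm1l (53.8 ± 3.44), Map7d1 (52.5 ± 11.5) and Prkaca (12.7 ± 3.40; SD, n = 3). Lamp1 and Rac1 did not overlap with the next gene in that order, nor did Map7d1 with Prkaca, but Akt1, Clptm1l and Map7d1 overlapped. In stroke blood Lamp1 (124 ± 49.2 CPM per kb) lay above the rest and Prkaca (2.53 ± 0.986) below, with Rac1, Clptm1l, Akt1 and Map7d1 overlapping between 11.5 and 41.6. In sham blood every gene overlapped its neighbour in the order, from Lamp1 at 298 ± 221 CPM per kb to Prkaca at 7.10 ± 5.99.

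Over the 9 libraries, the Pearson correlation of log2(CPM + 1) with Rac1 was 0.999 for Lamp1, 0.988 for Clptm1l, 0.971 for Map7d1, 0.964 for Prkaca and 0.457 for Akt1. The Spearman rank correlation with Rac1 was 0.983 for Clptm1l, 0.900 for Map7d1, 0.883 for Prkaca and 0.400 for Akt1. Among the 10 pairs without Akt1, r ranged from 0.935 (Prkaca with Clptm1l) to 0.999, with a median of 0.966. Among the 5 pairs with Akt1 it ranged from 0.416 to 0.509. These coefficients are descriptions of 9 points that fall in 3 groups, and the genes were listed for them.

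Removing the group means left the same division. The correlation of the deviations was 0.999 for Lamp1 with Rac1, 0.995 for Clptm1l, 0.945 for Map7d1, 0.932 for Prkaca and 0.149 for Akt1. Since sham blood supplies most of those deviations, the 6 stroke libraries were also taken alone. Group means were not removed in this set or the next ones, so differences between groups enter r. In the stroke libraries r with Rac1 was 0.998 for Lamp1, 0.990 for Clptm1l, 0.980 for Prkaca, 0.964 for Map7d1 and 0.713 for Akt1. Within stroke brain, Map7d1 and Prkaca were highest in library 1, where Rac1, Lamp1 and Clptm1l were lowest. In the 6 blood libraries r was between 0.972 and 0.999 for the first 4 of these genes and -0.11 for Akt1. Without sham blood library 1 and stroke blood library 2, the 2 libraries farthest from the median of Rac1, r with Rac1 was 0.998 for Lamp1, 0.989 for Clptm1l, 0.944 for Prkaca, 0.935 for Map7d1 and 0.241 for Akt1. Akt1, although listed with the others for its correlations, had the lowest r with Rac1 of the 5 genes in each of these sets of libraries.

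**Figure D2:**
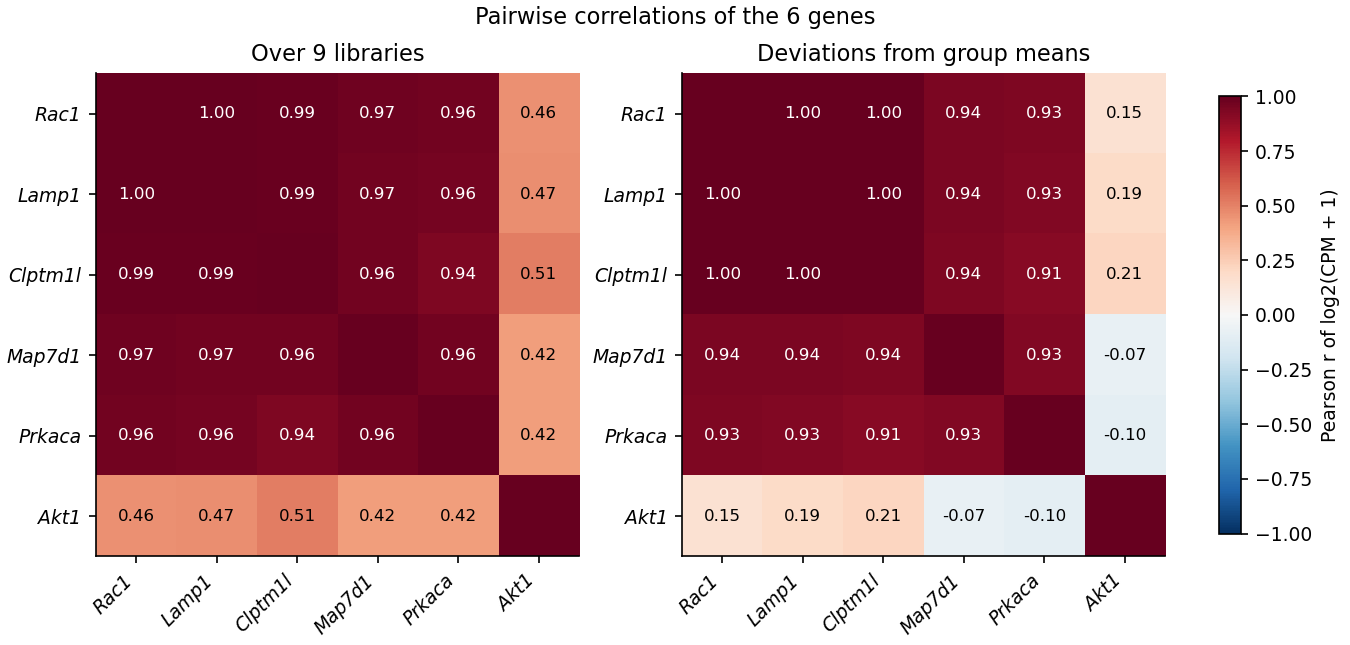
Pearson r of log2(CPM + 1) for each pair of the 6 genes over the 9 libraries (left) and after subtraction of each group's mean (right), from blue (-1) to red (1). The block of 5 genes is between 0.91 and 1.00 in both panels, and the row of Akt1 is between 0.42 and 0.51 on the left and between -0.10 and 0.21 on the right.

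Counts of Lamp1 and Rac1 within a library gave a ratio that needs no normalization. Lamp1 was between 1.80 and 2.70 times Rac1 in all 9 libraries, while Rac1 itself ranged 10.4-fold in sham blood. The ratio was 2.70 in sham blood library 1 and at most 2.62 in stroke blood, compared with 1.83 and 2.02 in sham blood libraries 2 and 3 and between 1.80 and 1.91 in stroke brain. Each stroke blood library lay between sham blood libraries 1 and 3 in this ratio. Akt1 ranged from 0.0693 times Rac1 in sham blood library 2 to 0.754 times Rac1 in stroke brain library 2, a range of 10.9-fold.

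The sizes of the differences between groups are given for the 6 genes with their errors and without a call, since the genes were chosen on these libraries. In stroke brain versus stroke blood the fitted difference was above 0 for all 6. The log2 fold change (edgeR) was 2.22 ± 0.27 for Rac1, 1.77 ± 0.26 for Lamp1, 1.46 ± 0.26 for Clptm1l, 1.72 ± 0.30 for Map7d1, 2.38 ± 0.34 for Prkaca and 1.99 ± 0.54 for Akt1 (SE). The median of the 6 was 1.88, beside 0.06 over all genes tested. Brain lay wholly above stroke blood for 5 of the 6, as for 24.9% of the 13189 genes tested, and Akt1 was the exception.

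In stroke blood versus sham blood, log2 fold changes were -1.68 ± 0.66 for Rac1, -1.30 ± 0.57 for Lamp1, -0.88 ± 0.54 for Clptm1l, -0.96 ± 0.51 for Map7d1 and -1.53 ± 0.60 for Prkaca (SE), with overlapping groups in each. The median of the 6 was -1.13, beside -0.03 over all genes. For Akt1 the log2 fold change was 0.60 ± 0.20, with stroke blood wholly above sham blood, as for 9.77% of 12664 genes.

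In stroke brain versus sham blood, Akt1 had a log2 fold change of 2.58 ± 0.58 (SE). It was the only gene of the 6 with brain wholly above sham blood, as for 22.1% of 13020 genes. The other 5 had log2 fold changes between 0.47 ± 0.56 for Lamp1 and 0.84 ± 0.58 for Prkaca, and sham blood library 2 reached or passed the lowest brain library for each. The 3 comparisons share groups, so they are not independent of each other.

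**Figure D3:**
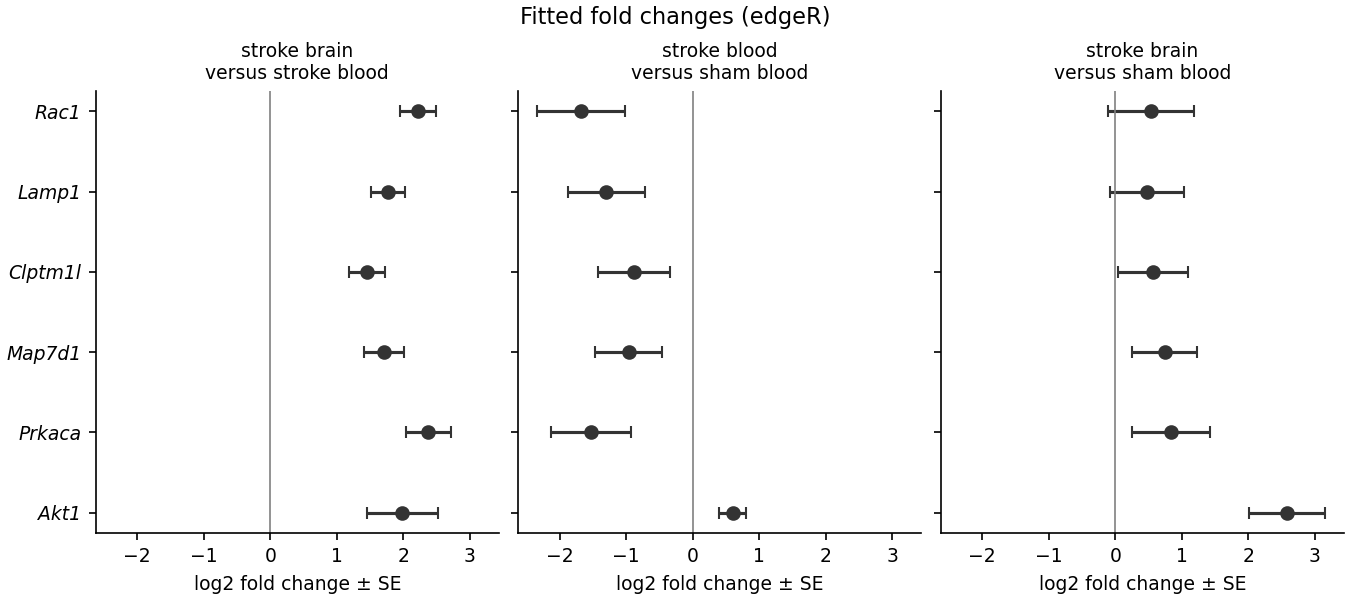
Fitted log2 fold changes (edgeR; points) with 1 SE on either side (bars) for the 6 genes in the 3 comparisons. All 6 points lie between 1.46 and 2.38 in stroke brain versus stroke blood, whereas in stroke blood versus sham blood Akt1 lies at 0.60 and the other 5 lie between -1.68 and -0.88.

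Most close paralogs of the 6 genes had other profiles. Rac2, the Rac protein typical of blood cells, was at 1303, 1223 and 1287 CPM in sham blood, between 1129 and 1452 CPM in stroke blood and between 882 and 980 CPM in stroke brain. Sham blood thus varied 1.07-fold for Rac2 where it varied 10.4-fold for Rac1. Rac2 did not meet the rule for a differentially expressed gene (DEG; log2 fold change beyond 1 and adjusted p under 0.05 in edgeR's quasi-likelihood test) in any comparison. It was at a log2 difference of -0.41 ± 0.15 (SE) in brain versus stroke blood (edgeR quasi-likelihood adjusted p = 0.0632) and of -0.47 ± 0.12 in brain versus sham blood (adjusted p = 0.0323), below the fold threshold. Rac3, at low counts, came nearer to Rac1. It had 3, 36 and 19 counts in sham blood, an 11.2-fold range of CPM with library 1 lowest and library 2 highest, as for Rac1. Rac3 rose in brain versus stroke blood by 2.29 ± 0.56 on the log2 scale (edgeR, adjusted p = 0.0136), a call lost without stroke brain library 3. Its mean level was below that set for the correlations with Rac1.

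Lamp2, the other major lysosome membrane glycoprotein of the family, was between 602 and 838 CPM in sham blood, between 637 and 764 CPM in stroke blood and between 569 and 630 CPM in stroke brain. Prkacb, the beta catalytic subunit of protein kinase A, was between 65.5 and 68.5 CPM in sham blood. Clptm1, the paralog of Clptm1l, was between 206 and 233 CPM there, and Akt2 between 53.3 and 59.2 CPM. Neither these 4 genes nor Map7 met the DEG rule in any of the 3 comparisons (edgeR). Akt2 shares 10.1% of its 75-base stretches with the pseudogene Akt2-ps, so its counts are uncertain to that extent.

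**Figure D4:**
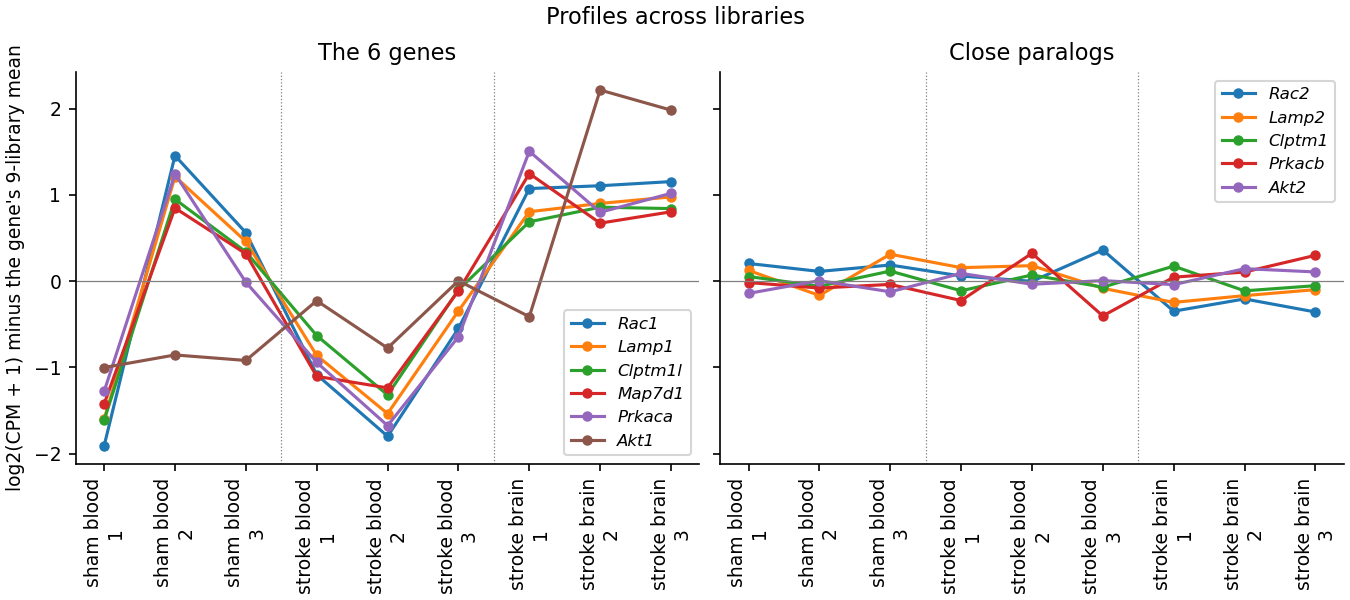
Log2(CPM + 1) of each gene minus its mean over the 9 libraries, for the 6 genes (left) and 5 close paralogs (right) on the same axis, with dotted lines between groups. Rac1 spans from -1.91 to 1.45 within sham blood, while the largest deviation of Prkacb is 0.404, of Rac2 0.360, of Clptm1 0.173 and of Akt2 0.143 over the 9 libraries.

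The wider pathways were read from 9 gene lists of 158 genes, none of them among the 6. In brain versus stroke blood, 14 of 144 tested list genes were DEGs higher in the brain and 6 were lower (edgeR), against 13.1% and 7.86% of all genes. A further 19 were higher and 9 lower past the adjusted p but short of the fold threshold, so the counts of DEGs leave out smaller changes. In the list of small GTPases related to Rac1 and their dissociation inhibitors, 3 of 11 were DEGs higher in the brain, namely Rhoc (log2 fold change 2.56 ± 0.56, adjusted p = 0.00861), Rac3 and Rhoh (1.19 ± 0.27, adjusted p = 0.00998). Rhoc encodes a RhoA relative, and Rhoh a GTPase-deficient relative found in blood cells, whose call was lost without stroke brain library 3. No DEG of this list was lower, but Arhgdib, a dissociation inhibitor of blood cells named after its value was seen, fell by less than the threshold (log2 fold change -0.61 ± 0.16, edgeR adjusted p = 0.0180).

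Among Rac activators, 2 of 21 were DEGs higher in the brain and 1 was lower. Past the adjusted p but short of the fold threshold, 3 more rose and 0 fell. The exchange factor Vav2 rose by 2.00 ± 0.22 (log2, SE; edgeR adjusted p = 0.000257) and Vav3 by 1.23 ± 0.21 (adjusted p = 0.00249), while Tiam1, another Rac exchange factor, fell by 1.20 ± 0.22 on the log2 scale (adjusted p = 0.00385). Among Rac inactivators, 3 of 11 were DEGs higher in the brain. Arhgap22 rose from a mean of 0.761 CPM in stroke blood to 9.06 CPM in stroke brain (log2 fold change 3.61 ± 0.42, edgeR adjusted p = 0.000343) and Chn2, a chimaerin, rose by 1.74 ± 0.43 (adjusted p = 0.0140). Srgap3 rose by 1.36 ± 0.42 (adjusted p = 0.0354). No DEG of this list was lower, but the GTPase-activating proteins Arhgap15 (log2 fold change -0.78 ± 0.17, edgeR adjusted p = 0.00845) and Arhgap17 (-0.71 ± 0.21, adjusted p = 0.0286), named after their values were seen, fell by less than the threshold. Another 1 gene of this list rose past the adjusted p but short of the fold threshold.

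Of 20 Rac effectors, 1 was a DEG higher in the brain and 2 were lower. Baiap2, a membrane-bending adaptor that links Rac to actin, rose by 1.14 ± 0.23 (log2, SE; edgeR adjusted p = 0.00535). Cybb, the catalytic subunit of the phagocyte NADPH oxidase, fell from 3701 to 1456 CPM (log2 fold change -1.31 ± 0.15, edgeR adjusted p = 0.00035), and Wasf2, part of the WAVE complex, fell by 1.07 ± 0.35 on the log2 scale (adjusted p = 0.0464). The call for Chn2 was lost without stroke brain library 3 or stroke blood library 1, that for Srgap3 under 5 of the 6 omissions of a library and that for Wasf2 under 5 of 6 and with library-size scaling.

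In the protein kinase A list, 1 of 15 was a DEG higher in the brain and 1 was lower, both regulatory subunits. Prkar1b rose by 2.04 ± 0.49 (log2, SE; edgeR adjusted p = 0.0125), a call lost without stroke brain library 3, stroke blood library 1 or stroke blood library 3. Prkar2b fell by 1.41 ± 0.27 on the log2 scale (adjusted p = 0.00455). In the PI3K and AKT list, 3 of 26 were DEGs higher in the brain, namely Gsk3b, a kinase inhibited by AKT (1.52 ± 0.23, edgeR adjusted p = 0.00147), the PI3K adaptor Pik3ap1 (1.23 ± 0.21, adjusted p = 0.00266) and Foxo1, a transcription factor that AKT keeps out of the nucleus (1.13 ± 0.24, adjusted p = 0.00710), whose call was lost without stroke blood library 2. No DEG of this list was lower, but Pik3r6, a regulatory subunit of PI3K named after its value was seen, fell by less than the threshold (log2 fold change -0.74 ± 0.19, edgeR adjusted p = 0.0175). Against this 1 fall, 6 genes of the list rose past the adjusted p but short of the fold threshold.

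Of 14 lysosome membrane genes beside Lamp1, 1 was a DEG higher in the brain and 1 was lower. Past the adjusted p but short of the fold threshold, 3 more rose and 0 fell. Cd63, a tetraspanin of late endosomes, rose from 5.23 to 264 CPM (log2 fold change 5.65 ± 0.79, edgeR adjusted p = 0.000900), and Laptm4a fell by 1.02 ± 0.20 on the log2 scale (adjusted p = 0.00476), a call lost without stroke brain library 2 and with library-size scaling. Of 20 genes of GPI-anchor synthesis and Clptm1, Pigt, a subunit of the GPI transamidase, fell by 1.26 ± 0.25 on the log2 scale (adjusted p = 0.00524) and was the only DEG. Of the 6 tested genes of the MAP7 family and kinesin-1, 0 were DEGs in edgeR or DESeq2 and 0 had an unadjusted p under 0.05 in edgeR. The median log2 fold change of a list was between -0.40 (the small GTPases and their dissociation inhibitors) and 0.34 (the MAP7 family and kinesin-1), beside 0.06 over all genes tested.

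In stroke blood versus sham blood, 0 of 143 list genes were DEGs in edgeR or DESeq2, as against 0.0079% of all genes in edgeR, and 10 had an unadjusted p under 0.05 in edgeR. In brain versus sham blood, 11 of 145 were DEGs higher in the brain and 2 were lower (edgeR), against 9.75% and 3.67% of all genes. The 5 largest rises were those of Cd63 (log2 fold change 4.93 ± 0.44, adjusted p = 0.000682), Arhgap22 (3.60 ± 0.42, adjusted p = 0.00187), Prkar1b (2.56 ± 0.54, adjusted p = 0.0164), Rhoc (2.47 ± 0.42, adjusted p = 0.00740) and Vav2 (2.11 ± 0.20, adjusted p = 0.000835). Prkar2b fell by 1.59 ± 0.21 (edgeR adjusted p = 0.00338) and Pigt by 1.13 ± 0.29 on the log2 scale (adjusted p = 0.0314). The call for Prkar1b was lost without sham blood library 2 or 3, and that for Pigt without stroke brain library 2 or 3 or sham blood library 2 or 3 and with library-size scaling. A further 10 list genes were higher and 12 lower past the adjusted p but short of the fold threshold.

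A gene was said to follow Rac1 where its deviations from the group means had r above 0.9 with those of Rac1 and a slope above 0.5 on the log2 scale. Of the 122 list genes with a mean above 3 on the log2(CPM + 1) scale, none followed Rac1, and the highest r of deviations was 0.910 for Pik3r1, a regulatory subunit of PI3K. Over all 9 libraries the highest r in the lists was 0.942, for Foxo1. The share of all genes that followed Rac1 was 1.01% (83 of 8224), which took in Lamp1, Clptm1l, Map7d1 and Prkaca.

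Among genes other than the 6, the 10 most like Rac1 over the 9 libraries were Rnf220 (r = 0.995), Snx20 (0.988), Phf3 (0.985), Nsmce4a (0.983), Mcmbp (0.983), Ppp2ca (0.980), Suds3 (0.979), Bod1l (0.979), Ulk2 (0.979) and Bod1 (0.979). The 10 most like it within groups were Ptpra (r = 0.993), Ppp2ca (0.993), Rnf220 (0.992), Phf3 (0.987), Actr5 (0.986), Snx20 (0.982), Nsmce4a (0.981), Rnf11 (0.980), Mcur1 (0.980) and Trim8 (0.979). Lamp1 ranked 1, Clptm1l 4, Map7d1 24, Prkaca 32 and Akt1 1916 of 8224 genes by r with Rac1 over the 9 libraries. Pearson r above 0.9 with Rac1 was met by 1.25% of genes.

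The counts of a pair of these genes are given in full. Ppp2ca, the catalytic subunit of protein phosphatase 2A, had 1165, 7145 and 4153 counts in sham blood, 1665, 1069 and 1970 in stroke blood and 9475, 10386 and 9919 in stroke brain. Rnf220, which encodes a ubiquitin ligase, had 546, 3278 and 2070 counts in sham blood, 972, 673 and 962 in stroke blood and 2830, 3270 and 3062 in stroke brain. In both, sham blood library 1 was at or near the bottom of the 9 and sham blood library 2 was far above it. Exons of Ppp2ca, Rnf220 and Ptpra overlap those of genes on the opposite strand.

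Akt1 had other neighbours, which were looked up after its values were seen. The genes with the highest r with Akt1 over the 9 libraries were Cdk2ap1 (r = 0.989), Sppl3 (0.985) and Slk (0.985). Gna12, the fifth, was between 6.02 and 8.43 CPM in sham blood and at 22.3, 120 and 150 CPM in the 3 stroke brain libraries. As with Akt1, stroke brain library 1 was well below the other two.

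All 6 genes, Akt1 included, had a GC-rich stretch in their transcripts, a feature that was picked among several transcript features after the values were seen. In the representative GENCODE M21 transcript, the richest window of 200 bases was 79.5% GC for Rac1 and Clptm1l, 80.5% for Map7d1, 82.0% for Lamp1, 83.0% for Prkaca and 84.5% for Akt1. The median over 8060 genes was 67.5%, and 8.78% of them reached 79.5%. The window began within the first 60 bases of the transcript in every case but Map7d1, where it began at base 1245, inside the coding sequence. Such an early start was found in 49.3% of the 8060 genes. Another annotated transcript of Prkaca reached only 58% and another of Akt1 only 64%.

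The paralogs had less GC-rich stretches, with 63.0% for Rac2, 61.5% for Lamp2, 61.0% for Prkacb, 75.5% for Akt2 and 73.0% for Clptm1. The stretch of Map7d1 is shown because it lies in coding sequence of exon 7, at chr4:126236912-126237111 (GRCm38, minus strand), with C and G in capitals.
Map7d1: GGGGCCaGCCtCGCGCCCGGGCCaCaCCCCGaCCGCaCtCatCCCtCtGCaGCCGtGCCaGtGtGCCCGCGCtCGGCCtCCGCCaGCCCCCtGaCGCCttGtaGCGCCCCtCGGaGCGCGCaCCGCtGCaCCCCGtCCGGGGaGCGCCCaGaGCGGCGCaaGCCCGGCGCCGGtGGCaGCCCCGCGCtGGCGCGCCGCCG

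The share of other genes that followed Rac1 differed between ranges of GC content. With the 6 genes left out, 46 of 616 genes whose richest window was at least 80% GC followed Rac1 (7.47%), compared with 13 of 1118 between 75% and 80% (1.16%) and between 0.162% and 0.466% in each of the lower ranges. Of the followers with a transcript, 59.0% were at or above 80% GC, against 7.15% of the other genes. Most genes with such a stretch did not follow Rac1, and Akt1 with its 84.5% did not. Of the 15 distinct genes named above as most like Rac1, 10 had a richest window of at least 79.5% GC, as did 6 of the 10 genes most like Akt1. Among those 15, the closest to Rac1 over the 9 libraries, Rnf220, Snx20, Phf3 and Nsmce4a, were below 79.5%. So was Ptpra, the closest within groups. Genes share the libraries, so these shares are descriptions.

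The level of these 616 genes also differed by library. Their median difference from their 9-library means was -0.27 in sham blood library 1, 0.12 in library 2 and -0.16 in library 3 on the log2 scale. It was between -0.28 and 0.03 in stroke blood and between 0.19 and 0.38 in stroke brain. The part of base composition in the profile of Rac1 was not tested.

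**Figure D5:**
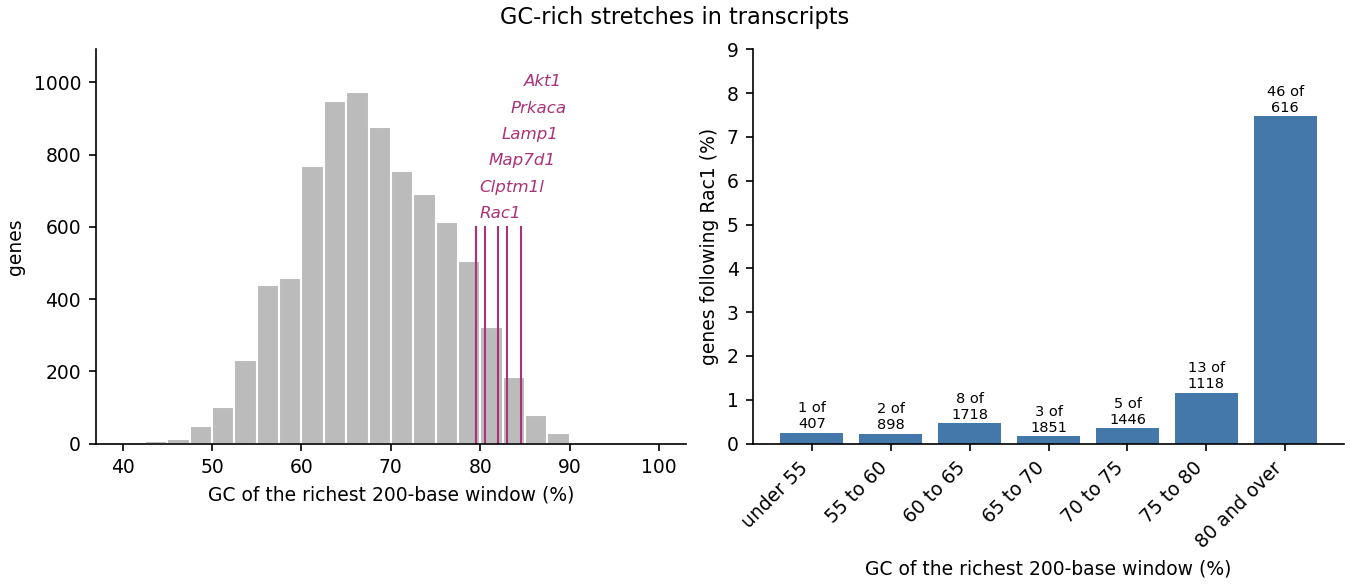
Left, number of genes by the GC content of the richest 200-base window of the transcript (8060 genes), with lines at the 6 genes, of which Rac1 and Clptm1l share the line at 79.5%. Right, percentage of genes in each GC range that followed Rac1, with the 6 genes left out, which is 7.47% at 80% and over and at most 1.16% below.

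Markers of other blood cells also differed among the sham blood libraries. The 7 red cell markers summed to 1250, 33867 and 31096 CPM in sham blood libraries 1, 2 and 3, and the 8 platelet markers to 19.4, 477 and 714 CPM, both lowest in the library where Rac1 was lowest. In stroke blood libraries 1, 2 and 3, where Rac1 was at 129, 78.1 and 187 CPM, red cell markers summed to 15660, 14102 and 20465 CPM. The blood libraries of both groups thus had the same order in red cell markers as in Rac1. Platelet markers summed to 355, 425 and 375 CPM in the stroke blood libraries and did not give that order. In stroke brain, where Rac1 was between 578 and 611 CPM, red cell markers summed to between 3.80 and 13.7 CPM with Slc4a1 at 0 in all 3 libraries, and platelet markers to between 35.0 and 79.4 CPM with Gp5 at 0 in all 3. The 9 neutrophil markers summed to between 764 and 3032 CPM in sham blood, between 462 and 790 CPM in stroke blood and between 833 and 1380 CPM in stroke brain.

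The 7 microglia markers summed to between 159 and 208 CPM in sham blood, between 149 and 206 CPM in stroke blood and to 1126, 1816 and 3335 CPM in stroke brain libraries 1, 2 and 3. Akt1 was at 71.3, 446 and 379 CPM in the same brain libraries, so both were lowest in library 1 but highest in different libraries. The 8 T and NK cell markers summed to between 233 and 605 CPM in sham blood, between 299 and 867 CPM in stroke blood and to 587, 1138 and 1193 CPM in those brain libraries. The 6 dendritic cell markers summed to between 72.4 and 116 CPM in sham blood, between 45.5 and 82.6 CPM in stroke blood and between 289 and 385 CPM in stroke brain, so brain lay wholly above both blood groups, as it did for the microglia markers. The sums of the B cell, endothelial and neural markers overlapped between stroke brain and stroke blood. Counts of mitochondrial genes made up 1.23%, 0.837% and 1.01% of sham blood libraries 1, 2 and 3, between 1.52% and 2.64% of the stroke blood libraries and between 0.379% and 0.727% of the stroke brain libraries. The part of these cell types and of RNA quality in the spread of the 6 genes and in their differences between groups was not tested.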

How the data were processed

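RNA of sorted monocytes/macrophages was sequenced in 9 libraries, 3 per group, and samples were grouped by the surgery and tissue in their labels. The authors made cDNA with the SMART-Seq HT kit, built Nextera XT libraries, mapped paired-end reads with HISAT2 (genome build GRCm38) and used HTSeq to count reads for each Ensembl gene; the deposited values are raw counts without normalization. Versions, annotation release and strand setting are not given in the sources used here. PCR reads carry no molecular identifiers, so counting error understates the error of a library.

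Symbols matched 53620 of 53801 genes. DEGs were called with edgeR 4.0.16 (R 4.3.3; TMM, quasi-likelihood test, default filter on low counts, Benjamini-Hochberg adjustment) between the 2 groups compared. The study used DESeq2, which was run as an alternative (version 1.42.0). Correlations used log2(CPM + 1). Both steps were tested on simulated data. Transcript features came from GENCODE M21, promoter windows from RefSeq (4 of 6 genes matched), with Python 3.11.15, pandas 2.3.3, numpy 2.4.6 and matplotlib 3.10.9.

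The 6 genes and all lists were chosen with earlier results of these data known. Named were the 6 genes, their close paralogs, up to 4 DEGs per pathway list and comparison with the largest changes, and the 10 genes most like Rac1 over 9 libraries and within groups. Chosen after seeing the data were 4 list genes below the fold threshold, all of them falls, the genes like Akt1, the GC features and the correlations without Akt1 or over stroke libraries alone. The alternatives were RLE or library-size scaling, no filter, all 9 libraries in 1 fit, the replicate number as a block, DESeq2, pseudocounts of 0.1 and 10, Spearman rank correlation, omission of the 2 libraries farthest from the median of Rac1 and of each library in turn. Nothing says that blood libraries shared a day or batch. Some genes of the lists are not reported here.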

Additional observations from a re-analysis of the deposited data

How the results depend on the processing

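With 3 libraries per group the precision is low where 1 group spreads widely, which was sham blood for 5 of the 6 genes and stroke brain for Akt1. Stroke blood versus sham blood had 1 DEG in edgeR, Serpinb10, 160 with no filter on low counts and 127 with DESeq2, and between 0 and 16 when a library was left out (16 without sham blood library 1); the cause was not tested. Stroke brain versus sham blood had 1748 DEGs, with 1146 to 1883 when a library was left out (1146 without sham blood library 3), and 13 pathway DEGs, with 8 to 13 (8 without stroke brain library 2). The median r over 9 libraries was 0.961, and 0.883 as Spearman rank correlation and 0.933 without the 2 libraries farthest from the median of Rac1. The median r within groups was 0.928, and 0.701 without those 2 libraries, with 0.773 to 0.965 when a library was left out (0.773 without sham blood library 1). Without Akt1, an alternative chosen after seeing the data, the medians were 0.966 and 0.939.

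The median log2 fold change of the 6 genes kept its sign in every alternative: 1.62 to 2.12 in brain versus stroke blood, -1.58 to -0.54 in stroke versus sham blood and 0.22 to 1.27 in brain versus sham blood when a library was left out. No individual gene of the 6 changed sign in any alternative. Libraries share a replicate number across groups, and the labels do not say whether the number pairs them. Their deviations correlated between -0.085 and 0.085 within same-numbered pairs. That cannot settle whether such pairs shared a mouse, day or batch, since each brain library pooled 5 mice. With the replicate block there were 2634 DEGs in brain versus stroke blood, 1 in stroke versus sham blood and 1571 in brain versus sham blood, and the calls for Srgap3 in brain versus stroke blood and for Pigt in brain versus sham blood were lost.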
